A study of Mus musculus with 2 samples.

Results

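The genes described here encode the major histocompatibility complex (MHC) of the mouse and the proteins that supply it with peptides. They were taken as every non-control probe of the array whose gene name starts with H2-, the prefix of mouse MHC genes, or is B2m, Tap1, Tap2, Tapbp, Cd74, Ciita, Nlrc5, Psmb8, Psmb9 or Psmb10, which gave 67 of 39429 probes and 51 of 30222 gene names. Of the 51 genes, 36 belong to the class I pathway, 12 to the class II pathway and 3 to neither. The rule itself reads gene names. In the array's mm9 design annotation 43 of the 51 genes lie on chromosome 17, where the MHC is, B2m lies on chromosome 2, Nlrc5 and Psmb10 on 8, Ciita on 16 and Cd74 on 18, and 3 have no position there. Liver RNA was profiled from a Drp1_KO mouse, labelled only as a knockout, and from a Drp1_WT mouse, labelled wild type, both male C57BL/6J. From an age of 4 weeks both had been on a lard diet with 24% fat, which supplied 45% of the calories, and this lasted 24 weeks. Drp1, encoded by Dnm1l, is the GTPase that divides mitochondria, and the series title places its disruption in the liver. The knockout allele and any Cre driver are not given in the sources used here. With a single array on each side, there were no replicates and no test of any difference.

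Class I molecules pair a heavy chain with beta-2-microglobulin (B2m) and show peptides from inside the cell to CD8 T cells. The proteasome, with the inducible subunits Psmb8, Psmb9 and Psmb10, cuts these peptides, the transporter made of Tap1 and Tap2 carries them into the endoplasmic reticulum, tapasin (Tapbp) helps to load them, and Nlrc5 switches on the genes. Class II molecules pair an alpha with a beta chain in professional antigen-presenting cells, such as dendritic cells, B cells and macrophages, and show peptides from taken-up material to CD4 T cells. Their transport needs the invariant chain Cd74, peptide exchange needs H2-DM, and their transcription needs Ciita. Liver cells of nearly every type carry class I, while class II is mainly a product of the liver's immune cells.

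Levels below are multiples of the 75th percentile of the signals of an array, and differences are log2 values, Drp1_KO minus Drp1_WT. A gene counts as higher or lower from 1.5-fold, and it was measured where a probe stood well above background. Repeat spots of the same probe gave a difference an SD of 0.14, or 1.10-fold, which describes the measuring error of an array and not variation between mice. The knockout array had 57.1% of its probes well above background, against 50.5% in the wild type, and the 75th percentile itself was 1.57 times as bright on the knockout array. Both arrays measured 15401 genes, whose median difference was -0.11. Dnm1l read 1.75 on the knockout array and 2.03 on the wild type array, a difference of -0.21, and the labels do not say whether its only probe lies in the deleted part. The hepatocyte marker list was measured in full, 12 of 12 genes, with a summed level of 3222 in the knockout and 4713 in the wild type and a median difference of -0.55. Of 10 skeletal muscle markers, 7 were well above background in the wild type alone, and the list summed to 0.497 in the knockout and 9.11 in the wild type. The part of this muscle RNA in the results was not tested. The design text describes both fasted and refed collection and the labels do not say which applied, so the part of feeding state was not tested either.

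The medians of both classes stood on opposite sides of 0. Class I genes, chiefly the heavy chains, had a median difference of 0.34 (1.27-fold) over the 27 that both arrays measured, and 23 of these 27 were above 0 in the knockout liver. The class II genes that both arrays measured had a median of -0.22, with 7 of 7 below 0, in a range of -0.49 to -0.04. Of all 15401 genes 39.9% were above 0 and 9255 genes were below it, around a median of -0.11. The class II side of 0 was thus the more common one on these arrays. Another 3 class II genes and 1 class I gene were seen in the knockout alone. With the 2 of these class II genes that have a lower bound set at it, the class II median over 9 genes was -0.14, and with the class I gene at its bound the class I median over 28 genes was 0.32. Among genes measured on both arrays 8 class I genes were higher and 1 was lower at the 1.5-fold threshold, while 0 class II genes passed in either direction. H2-Oa and, on its brightest probe only, H2-Ob have lower bounds past 1.5-fold. Both are class II genes seen in the knockout alone and are described further on. Across all 15401 genes 8.41% were higher and 13.4% lower at this threshold, so the 29.6% of measured class I genes that were higher lay above that share. At 2-fold 0 of the members measured on both arrays passed, against 2.9% of all such genes higher and 3.65% lower.

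The direction of each class against 0 depends on how the arrays are scaled, while the distance between the classes moved less. The class I median minus the class II median was 0.56, or 1.47-fold, and it lay between 0.47 and 0.71 under all 9 alternative settings planned, over which the class I median lay between 0.29 and 1.12. As multiples of each array's 75th percentile, itself 1.57 times as bright on the knockout array, the E1A spike-in spots read 0.78 lower there. Scaling to these spots raised every difference by that amount. All 7 class II genes then stood above 0 with a median of 0.56, and class I had a median of 1.12. Under that scaling 8955 of all genes were higher and 209 lower, in place of 1295 and 2065. Quantile normalization, loess normalization and the authors' deposited value table gave class I medians of 0.61, 0.62 and 0.61 and class II medians of -0.10, -0.08 and -0.08, which for class II lie within 1 SD of spot error, and under each of them H2-Eb1 alone among class II genes measured on both arrays stood above 0. Loess normalization split all genes into 1505 higher and 1467 lower.

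**Figure D1:**
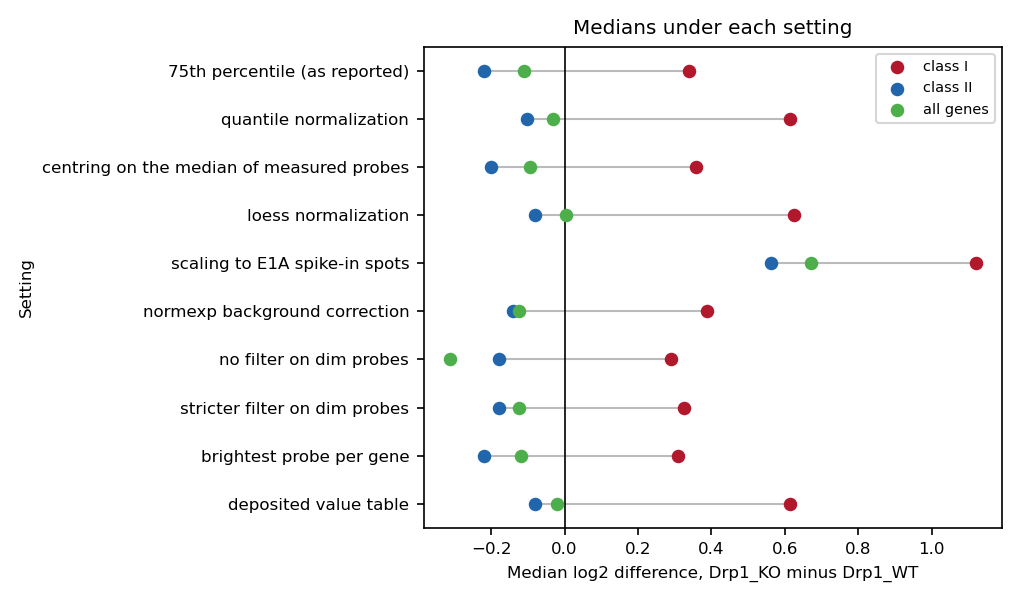
Median log2 difference (Drp1_KO minus Drp1_WT, horizontal axis) of class I genes, class II genes and all measured genes under the reported scaling and 9 alternatives (vertical axis), 1 array per group. Class I lies right of class II under every setting drawn, and the class II median lies right of 0 under spike-in scaling (0.56) only.

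**Figure D2:**
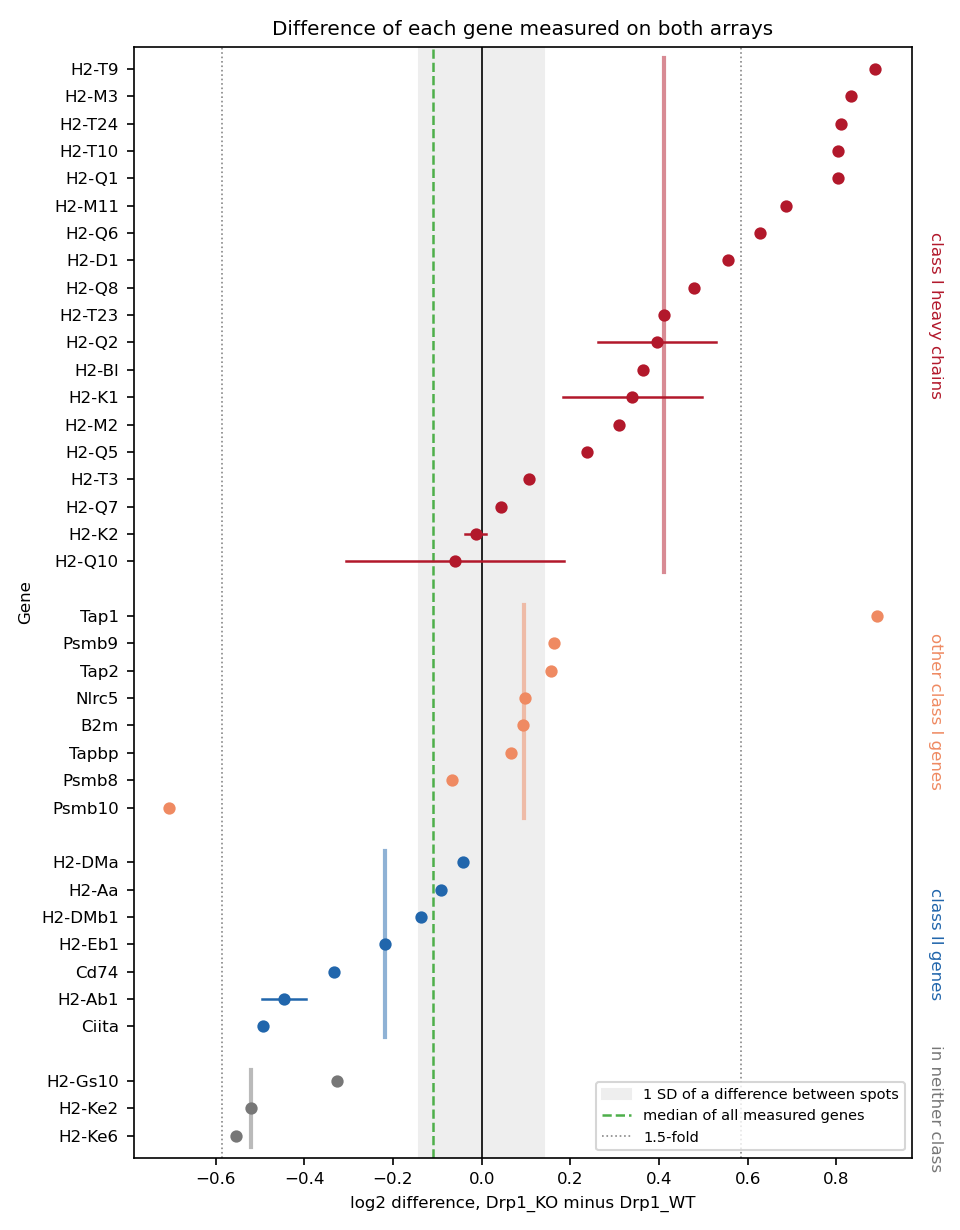
Log2 difference (Drp1_KO minus Drp1_WT, horizontal axis) of the 37 MHC and antigen presentation genes measured on both arrays, grouped by role. Points are genes, horizontal lines join the probes of a gene, thick vertical lines are group medians, the grey band is 1 SD of a difference between repeat spots (0.14), the dashed line is the median of all genes (-0.11) and dotted lines mark 1.5-fold. Of the 19 class I heavy chains, 17 lie right of 0, and all 7 class II genes lie left of it.

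The classical heavy chains H2-K1 and H2-D1, which present peptides on most cells, were both brighter in the knockout. H2-D1 read 99.3 in the knockout and 67.5 in the wild type, a difference of 0.56 (1.47-fold), just short of the threshold. The call turns on the processing, since H2-D1 passed at 0.89 with quantile normalization, 0.90 with loess, 0.88 in the authors' deposited table and 0.61 with normexp. H2-K1 read 106 in the knockout and 84.0 in the wild type, a difference of 0.34, which became 0.69 with quantile normalization and with loess and 0.67 in the authors' deposited table. Its probes differed in size but not in sign. The probe at chr17:34133055-34133114 (mm9, minus strand) had 10 repeat spots with an SD of 0.042 in the knockout and 0.027 in the wild type and gave 0.18, from levels of 136 in the knockout and 119 in the wild type. The other, at chr17:34133984-34134043, gave 0.50, from 83.4 in the knockout and 59.1 in the wild type.

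The heavy chain genes are close copies of each other, and some probes show it in their letters. Among the 67 probes, 7 pairs from different genes share a run of at least 15 bases. The sequences below are shown because they bear on how far a reading belongs to a single gene. Both pairs are in coding sequence, the K1 and T23 pair at the membrane-spanning end of the protein and the Q10 and Q2 pair in the immunoglobulin-like domain, and capitals mark the run that a pair shares, 29 bases in the first and 19 in the second.
H2-K1: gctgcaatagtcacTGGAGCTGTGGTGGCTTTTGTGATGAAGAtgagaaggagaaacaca
H2-T23: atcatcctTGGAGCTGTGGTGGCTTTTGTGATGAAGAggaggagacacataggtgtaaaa
H2-Q10: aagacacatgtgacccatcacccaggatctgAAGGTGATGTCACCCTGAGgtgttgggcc
H2-Q2: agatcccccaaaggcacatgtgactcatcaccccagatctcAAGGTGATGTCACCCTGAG

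In mm9 the array design places the H2-K1 probe at chr17:34133984-34134043, the H2-T23 probe at chr17:36167338-36167574 in more than a single block, the H2-Q10 probe at chr17:35610036-35610095 and the H2-Q2 probe at chr17:35460007-35460066. The first pair lies on the minus strand and the second on the plus strand. How much signal a probe takes from a relative of its gene was not tested, so single heavy chain values are uncertain in the share of each gene.

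Of the 28 heavy chain genes, H2-K1 and H2-D1 included, both arrays measured 19, with a median difference of 0.41 (1.33-fold), and 7 of them were higher while 0 were lower. The T region gave 3 of the 7. H2-T9, whose accession is named H2-T22 in RefSeq, read 4.27 in the knockout and 2.31 in the wild type, a difference of 0.89. H2-T10, a pseudogene in RefSeq, read 3.63 in the knockout and 2.08 in the wild type, a difference of 0.80. T22 and T10 are known as class I-like molecules that gamma delta T cells recognise. H2-T24 read 0.271 in the knockout and 0.154 in the wild type, a difference of 0.81, and its other probe was well above background in the knockout only.

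H2-T23 encodes Qa-1, which shows leader peptides of other class I chains to receptors of natural killer cells. It read 102 in the knockout and 76.9 in the wild type, a difference of 0.41. H2-T3 read 0.303 in the knockout and 0.281 in the wild type, a difference of 0.11 that is within 1 SD of spot error. The 5 measured T region genes had a median difference of 0.80, and each was above 0.

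The 7 Q region genes counted as class I were all measured, with a median of 0.40, and 2 passed the threshold. H2-Q1 read 1.16 in the knockout and 0.667 in the wild type, a difference of 0.80. H2-Q6, of the Qa-2 group of class I proteins, read 40.9 in the knockout and 26.5 in the wild type, a difference of 0.63. These were followed by H2-Q8, also of the Qa-2 group, at 0.48, with 7.09 in the knockout and 5.08 in the wild type. H2-Q2 averaged 64.4 in the knockout and 49.0 in the wild type, a difference of 0.40. Its probes gave 0.53 and 0.26, and the design places them on either side of the H2-Q1 probe. They lie at chr17:35482113-35482172 and chr17:35460007-35460066, and the H2-Q1 probe at chr17:35461859-35461918 (mm9). The 0.26 probe is placed nearer to the H2-Q1 probe than to the other H2-Q2 probe, so which gene it reads is uncertain.

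The remaining Q genes stood higher with quantile normalization, loess and the authors' deposited table than at the reported scaling. H2-Q5, a pseudogene in RefSeq, read 127 in the knockout and 108 in the wild type, a difference of 0.24. H2-Q7, also of the Qa-2 group, read 119 in the knockout and 115 in the wild type, a difference of 0.04. H2-Q10, a class I protein that hepatocytes secrete, averaged 69.0 in the knockout and 71.9 in the wild type, a difference of -0.06, and its probes disagreed in sign. The probe printed above gave 0.19, from 48.3 in the knockout and 42.4 in the wild type, and the probe at chr17:35611449-35611508 gave -0.30, from 98.6 in the knockout and 122 in the wild type. H2-Gs10, named H2-Q4 in RefSeq and counted in neither class here, read 34.5 in the knockout and 43.3 in the wild type, a difference of -0.33, and it stood at -0.03 with quantile normalization, -0.04 with loess and -0.02 in the authors' deposited table. With quantile normalization, loess and the authors' deposited table H2-Q5 stood at 0.58, 0.61 and 0.57, H2-Q7 at 0.37, 0.41 and 0.35, and H2-Q10 at 0.26, 0.27 and 0.26. Counting H2-Gs10 as class I left the class I median at 0.32 and the distance between the classes at 0.54.

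Of 11 M region genes 3 were measured on both arrays, with a median of 0.69. H2-M3, which presents peptides that start with formyl-methionine, as bacteria and mitochondria make them, read 0.525 in the knockout and 0.295 in the wild type, a difference of 0.83. H2-M11 read 0.869 in the knockout and 0.540 in the wild type, a difference of 0.69. H2-M2 read 35.8 in the knockout and 28.9 in the wild type on the probe that both arrays measured, a difference of 0.31. That probe had 9 usable spots with an SD of 0.094 in the knockout and 8 with an SD of 0.056 in the wild type. The other H2-M2 probe was far dimmer, at 0.152 in the knockout and 0.0274 in the wild type. It was well above background in the knockout only, so the level of H2-M2 is uncertain. H2-M9 was measured in the knockout alone and was at least 1.05-fold higher, while H2-M1, H2-M10.1, H2-M10.2, H2-M10.3, H2-M10.4, H2-M10.6 and H2-M5 were not well above background on either array, nor was H2-T18.

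Beside these regions stand 2 pseudogenes in RefSeq that the array names as heavy chain genes. H2-Bl read 25.3 in the knockout and 19.7 in the wild type, a difference of 0.36. H2-K2 read 102 in the knockout and 103 in the wild type, a difference of -0.01 that became 0.31 with quantile normalization, 0.35 with loess and 0.30 in the authors' deposited table. Its probes overlap and gave 0.01 and -0.04. Leaving out the 4 pseudogenes of RefSeq gave the same class I median, 0.34.

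**Figure D3:**
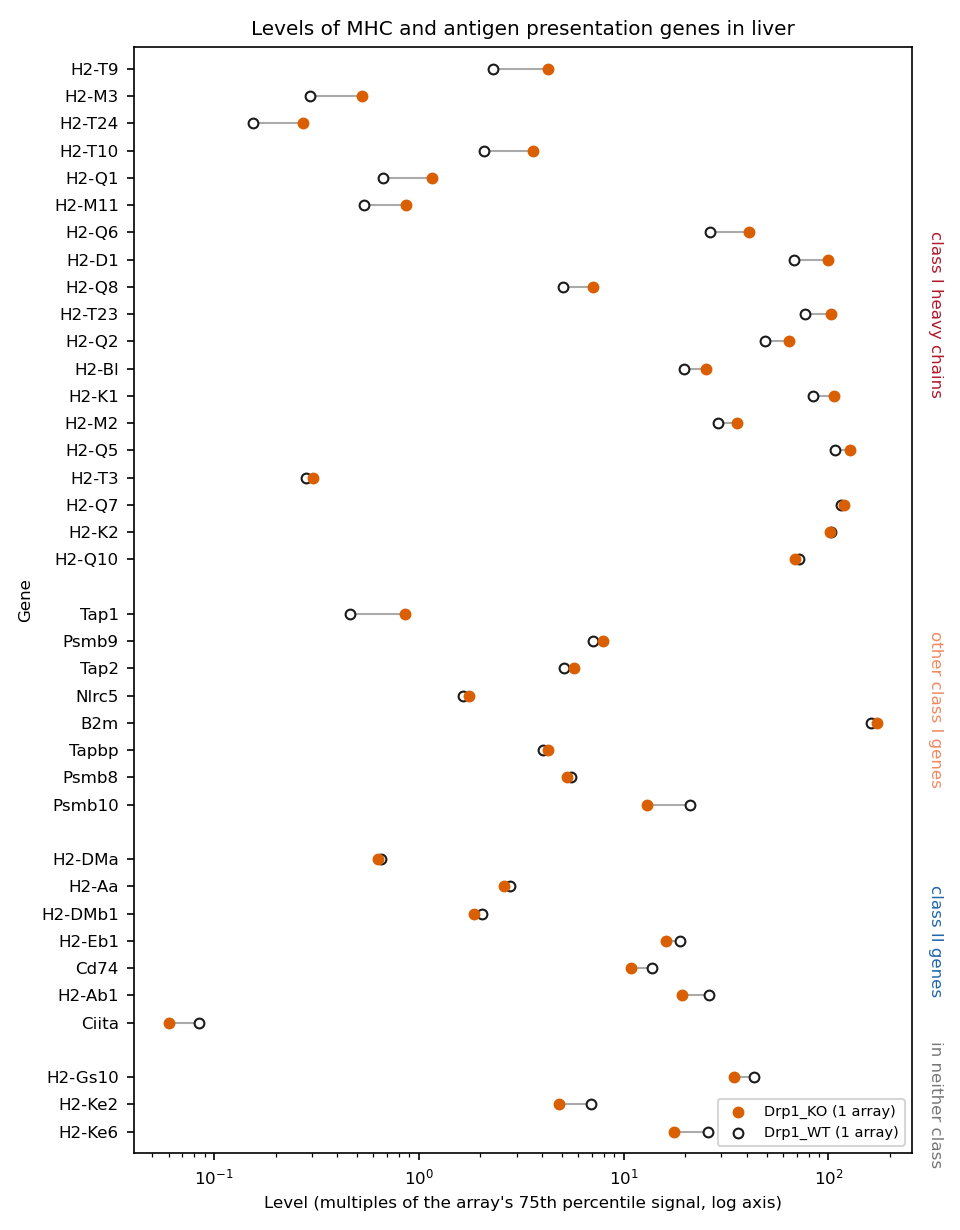
Level of each gene measured on both arrays (horizontal log axis, multiples of the array's 75th percentile signal), with filled points for the Drp1_KO array and open points for the Drp1_WT array, 1 array each. Each row compares both arrays for 1 gene, and levels of different genes depend on their probes and are not comparable. The filled point lies right of the open one for 23 of 27 class I genes and left of it for all 7 class II genes.

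The partners of the heavy chains mostly showed smaller differences at the reported scaling. B2m, the light chain that every class I molecule needs, read 172 in the knockout and 161 in the wild type, a difference of 0.09 that became 0.47 with quantile normalization, 0.49 with loess and 0.46 in the authors' deposited table. Tapbp read 4.25 in the knockout and 4.06 in the wild type, a difference of 0.07. Nlrc5, the class I transactivator, read 1.77 in the knockout and 1.65 in the wild type, a difference of 0.10. Over the 8 class I genes that are no heavy chains the median was 0.10.

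The peptide transporter was uneven. Tap1 read 0.855 in the knockout and 0.461 in the wild type, a difference of 0.89 (1.85-fold) and the greatest among members measured on both arrays. It rests on 10 spots with an SD of 0.034 in the knockout and 0.111 in the wild type. Tap2, its partner subunit, read 5.73 in the knockout and 5.14 in the wild type, a difference of 0.16.

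The immunoproteasome subunits also went apart. Psmb9 read 7.90 in the knockout and 7.05 in the wild type, a difference of 0.16. Psmb8 read 5.27 in the knockout and 5.52 in the wild type, a difference of -0.07. Psmb10 read 13.0 in the knockout and 21.1 in the wild type, which made it 1.63-fold lower (-0.71) and the only member measured on both arrays that passed the threshold downwards. The call was lost with quantile normalization (-0.48), loess (-0.46) and the authors' deposited table (-0.47), and Psmb10 stood at 0.075 under spike-in scaling. It lies outside the MHC, at chr8:108459677-108459736 (mm9, probe position), while Psmb8 and Psmb9 lie inside it next to Tap1 and Tap2.

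The class II chains measured on both arrays were somewhat dimmer in the knockout, though none reached 1.5-fold. H2-Ab1, the A beta chain, averaged 19.2 in the knockout and 26.2 in the wild type, a difference of -0.45 (1.36-fold lower), from overlapping probes at -0.40 and -0.49. It stood at -0.19 with quantile normalization, with loess and in the authors' deposited table. H2-Aa, the A alpha chain that pairs with it, read 2.61 in the knockout and 2.78 in the wild type, a difference of -0.09 and within 1 SD of spot error. H2-Eb1, the E beta chain, read 16.1 in the knockout and 18.8 in the wild type, a difference of -0.22. H2-Ea-ps, the E alpha gene that C57BL/6 mice are known not to transcribe, was below background on both arrays.

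The helpers of class II that both arrays measured lay on the same side of 0. Cd74, the invariant chain, read 10.9 in the knockout and 13.7 in the wild type, a difference of -0.33. It stood at -0.14 with quantile normalization, -0.11 with loess and -0.13 in the authors' deposited table, each within 1 SD of spot error. Ciita, the class II transactivator, was dim on both arrays, at 0.0603 in the knockout and 0.0848 in the wild type, with a difference of -0.49. This became -0.56 with quantile normalization, -0.18 with loess and -0.54 in the authors' deposited table. H2-DMa and H2-DMb1, the chains of the peptide exchange factor, differed by -0.04 and -0.14, with 0.632 and 1.85 in the knockout and 0.651 and 2.03 in the wild type. Without any filter on dim probes 3 of 12 class II genes were higher, and these were the dim genes H2-Ob, H2-Oa and H2-Eb2.

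Several dim class II genes were seen in the knockout alone. H2-Ob passed the background limit there on all 3 of its probes and on none of them in the wild type. On its brightest probe, with 0.185 in the knockout and 0.0144 in the wild type, it was at least 3.12-fold higher. The other H2-Ob probes read 0.0770 and 0.0564 in the knockout and 0.0504 and 0.0188 in the wild type, and neither gave a bound of 1.5-fold. H2-Oa, its partner in the DM regulator H2-O of B cells, was at least 1.87-fold higher, with 0.111 in the knockout and 0.0511 in the wild type. Each bound sets the knockout value against the higher of the wild type probe's own value and the dimmest signal that passed the background limit on that array. H2-Eb2 was well above background in the knockout at 0.0495, with 0.0151 in the wild type, but gives no fold, since its value lies under that floor, and H2-DMb2 was below background on both arrays. In all 4 of the 51 members (7.84%) were measured in the knockout alone and 0 in the wild type alone, against 7.2% and 1.25% of all gene names, so the members' share is near that of the whole array.

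The remaining members are neighbours of the MHC genes that encode no MHC chain. H2-Ke6 read 17.7 in the knockout and 25.9 in the wild type, a difference of -0.55. H2-Ke2, named Pfdn6 in RefSeq and a prefoldin subunit, read 4.85 in the knockout and 6.96 in the wild type, a difference of -0.52. Both lie near H2-K1 on chromosome 17.

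Among genes measured on both arrays most class I differences lay above those of class II. H2-DMa had the highest of only 7 class II values there, at -0.04. Above it lay 18 of 19 heavy chains and 24 of 27 class I genes, the exceptions being H2-Q10, Psmb8 and Psmb10. H2-Gs10, named H2-Q4 in RefSeq and left out of these counts, lay below it at -0.33. For scale, all 15401 genes had a median of -0.11, itself below H2-DMa, and 39.9% of them lay above 0. The share of all genes above H2-DMa was not counted, so how unusual these counts are is not known. The bounds of H2-Oa (0.90) and of the brightest H2-Ob probe (1.64), seen in the knockout alone, lie above all of the class I differences. Heavy chains alone against class II chains alone differed by 0.63 (1.55-fold) in their medians. Under quantile and loess normalization and in the deposited table all 19 heavy chains lay above every class II gene measured on both arrays. H2-Gs10 did not, at -0.03, -0.04 and -0.02 in that order. The highest class II gene, H2-Eb1, stood at 0.004, 0.03 and 0.02, and the median of all genes at -0.03, 0.00 and -0.02.

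Many class I members are among the brightest genes of the liver arrays, where other genes ran the other way. All measured genes were sorted by mean level into 10 bins of equal size. In the brightest bin the median difference was -0.30 and 1.49% were higher, while the 12 class I genes in that bin had a median of 0.32 and 10 of them were above 0. Only H2-Q6 among these 12 passed 1.5-fold. The other 7 genes that passed were of lower brightness, where larger differences are more common: 18.6% of all genes were higher in the bin that holds H2-T24 and 4.48% in the bin that holds H2-T9. H2-Ab1 was the only class II gene in the brightest bin, at -0.45.

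**Figure D4:**
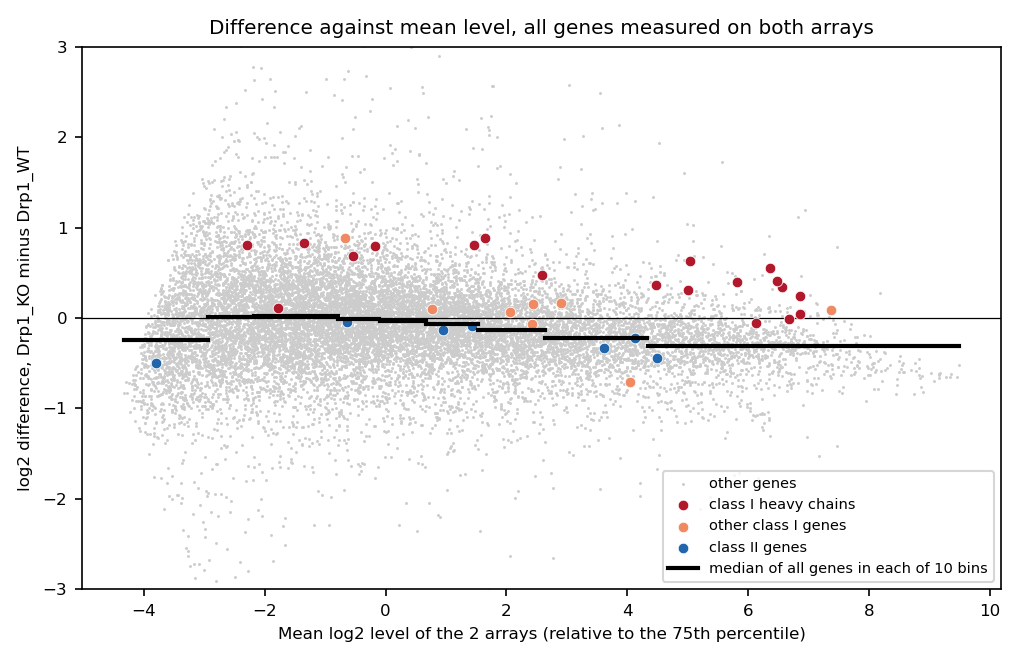
Log2 difference (Drp1_KO minus Drp1_WT) against the mean log2 level of both arrays for all 15401 genes measured on both, with class I heavy chains, other class I genes and class II genes coloured and the median of each of 10 brightness bins as a black line. The black line stands at -0.30 in the brightest bin, and the coloured heavy chains there lie above it. The 3 members of neither class, H2-Gs10 among them, are not drawn, and 37 genes lie outside the vertical range.

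The stretches before the starts of 5 members are shown because MHC genes of both classes are known for regulatory elements there. RefSeq windows of GRCm38.p6 were at hand for 34 of the 51 members. In the 250 bases before the start, on both strands, 4 strings were searched: GGGGATTCC, from the kappa-B site of class I genes, GAANNGAAA, from the interferon response element, AGNNACNGA, from the X1 box of class II genes, and CCAAT, the core of the Y box. Capitals mark the matches, none of which overlap.
H2-K1: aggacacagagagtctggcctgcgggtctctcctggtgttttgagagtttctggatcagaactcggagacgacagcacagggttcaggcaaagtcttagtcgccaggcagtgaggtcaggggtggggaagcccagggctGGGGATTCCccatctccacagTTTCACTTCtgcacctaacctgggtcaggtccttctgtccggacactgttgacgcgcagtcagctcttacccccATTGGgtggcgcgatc
H2-D1: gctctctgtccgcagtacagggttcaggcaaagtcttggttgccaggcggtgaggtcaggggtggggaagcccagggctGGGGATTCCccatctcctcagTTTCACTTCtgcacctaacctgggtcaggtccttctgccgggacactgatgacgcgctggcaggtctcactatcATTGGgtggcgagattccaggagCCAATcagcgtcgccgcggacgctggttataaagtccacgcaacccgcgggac
H2-Q10: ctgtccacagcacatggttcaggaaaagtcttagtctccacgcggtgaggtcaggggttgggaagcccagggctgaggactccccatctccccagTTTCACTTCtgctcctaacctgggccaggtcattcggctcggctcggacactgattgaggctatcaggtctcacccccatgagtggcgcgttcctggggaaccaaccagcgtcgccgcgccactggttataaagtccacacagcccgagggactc
H2-Aa: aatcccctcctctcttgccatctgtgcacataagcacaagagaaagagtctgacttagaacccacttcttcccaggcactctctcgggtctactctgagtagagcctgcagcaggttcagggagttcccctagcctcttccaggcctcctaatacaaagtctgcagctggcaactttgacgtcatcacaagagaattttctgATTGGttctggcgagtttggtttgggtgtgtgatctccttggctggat
H2-Eb1: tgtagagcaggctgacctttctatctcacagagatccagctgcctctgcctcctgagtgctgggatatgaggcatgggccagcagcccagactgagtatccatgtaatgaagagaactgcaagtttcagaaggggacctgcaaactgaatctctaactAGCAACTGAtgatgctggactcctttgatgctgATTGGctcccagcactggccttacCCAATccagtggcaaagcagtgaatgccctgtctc

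These stretches lie at chr17:34000348-34000597 (minus strand) for H2-K1, chr17:35262844-35263093 (plus) for H2-D1, chr17:35469839-35470088 (plus) for H2-Q10, chr17:34287824-34288073 (minus) for H2-Aa and chr17:34305617-34305866 (plus) for H2-Eb1, all in GRCm38.p6. The kappa-B string stood before 4 of the 17 measured class I genes with a window, H2-K1, H2-D1, H2-Q6 and H2-Q7, and before 0 of 4 class II genes, against 0.213% of all 32851 windows. The interferon response string stood before 7 of the 17 class I genes, those 4 with H2-Q10, H2-M2 and H2-M3, and before 0 of the 4 class II genes, against 6.31% of all windows. The X1 string stood before 3 of 17 and 2 of 4, against 14.7%, and CCAAT before 13 of 17 and 3 of 4, against 33.9%. The genes that hold both the kappa-B and the interferon string covered differences of 0.63 (H2-Q6), 0.56 (H2-D1), 0.34 (H2-K1) and 0.04 (H2-Q7), while H2-Q10, at -0.06, holds the interferon string alone. A match of letters is a description and no evidence that a factor binds.

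Other genes of the class I machinery had a median on the other side of 0 from the heavy chains. Among 18 measured genes for peptide loading and supply outside the member list, 2 passed upwards and 4 downwards. Of all 15401 genes 8.41% passed upwards and 13.4% downwards, and their median was also below 0, at -0.11. In the brightest bins, 9 and 10 of 10, the median of all genes was -0.22 and -0.30. The median of the list was -0.28. Spike-in scaling adds 0.78 to this and every other list median, which turns this one above 0. The chaperone Calr, which holds new heavy chains for loading, read 11.1 in the knockout and 26.2 in the wild type, 2.36-fold lower. Pdia3, its partner in the loading complex, was 1.76-fold lower, with 3.99 in the knockout and 7.0 in the wild type. The translocon subunit Sec61a1 (-0.65) and the interferon regulator Irf2 (-0.70) were also lower. On the higher side stood Nfkb1, the gene of a kappa-B binding subunit, at 1.22 (0.222 in the knockout and 0.0953 in the wild type), and the conjugating enzyme Ube2l6 at 0.61. Irf1, an activator of class I genes, read 4.70 in the knockout and 5.39 in the wild type, a difference of -0.20.

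Genes of class II processing and control gave a median of 0.11, with 3 of 18 measured genes higher and 0 lower. Of all 15401 genes 8.41% were higher and 13.4% lower. The lysosomal protease Ctsl, at 168 in the knockout and 77.2 in the wild type, was 2.18-fold higher. Ctss, which trims the invariant chain, was 1.52-fold higher, with 13.3 in the knockout and 8.75 in the wild type. The third was Nfya at 0.79, a subunit of the factor that binds CCAAT, while Rfx5, which binds the X box, was below background on both arrays.

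Interferon targets outside the MHC differed between lists. Of all 15401 genes 8.41% passed 1.5-fold upwards and 13.4% downwards. Of 14 measured type I interferon genes 10 passed upwards and 0 downwards, around a median of 0.96. The greatest were Ifi44 (2.65), Ifit2 (2.21), Rsad2 (2.01), Oasl2 (1.92) and Irf7 (1.68), and Ifi44 read 1.26 in the knockout and 0.201 in the wild type. Of 14 measured genes that interferon-gamma induces 2 passed upwards and 0 downwards, around a median of 0.29. These were Cxcl10, a chemokine, at 2.08, and the GTPase Gbp3 at 1.22. The class I median of 0.34 lies near the median of the interferon-gamma list and under that of the type I list. Whether these lists and class I moved for a shared reason was not tested.

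Markers of the cells that carry class II varied by list. Beside the marker counts below stand 8.41% higher and 13.4% lower among all 15401 genes. In whole liver RNA, fewer cells of a type and less RNA per cell cannot be told apart. Of 15 macrophage and Kupffer cell markers 5 were higher and 0 lower, with a summed level of 119 in the knockout and 95.2 in the wild type. Trem2 (2.43), Marco (1.65), Cd14 (1.60), Lyz2 (1.38) and Cd68 (0.63) were the 5, while Clec4f, which marks Kupffer cells, stood at -0.16. Of 6 measured dendritic cell markers 2 were higher, Ccr7 (1.57) and Itgax (1.16), and 1 was lower, Siglech of plasmacytoid cells (-0.79), which takes most of the list's summed level of 9.07 in the knockout and 14.2 in the wild type. Flt3, Cd209a and Clec10a were seen in the knockout alone, as were 7.2% of all gene names. Clec10a was at least 2.09-fold higher, and the other dendritic cell markers seen there alone gave no fold. Xcr1 was below background on both arrays.

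B cell markers were scarce, and Ms4a1 was seen in the knockout alone, where it was at least 1.29-fold higher. Pax5, Fcer2a, Blk and Fcrla were below background on both arrays, the 4 measured ones had a median of 0.17 with 0 higher and 0 lower, and the list summed to 1.34 in the knockout and 1.36 in the wild type. Of 6 measured T and natural killer cell markers 3 were higher, Cd3d (0.98), Gzma (0.82) and Cd2 (0.80), and 1 was lower, Cd3e (-0.67). The 6 had a median of 0.57. The summed level of the list, mostly Cd4, was 18.8 in the knockout and 21.9 in the wild type. Cd8a, Klrb1c and Ncr1 were below background on both arrays. Endothelial markers had 2 of 9 higher and 0 lower around a median of 0.17 and summed, mostly through Clec4g, to 40.9 in the knockout and 43.6 in the wild type. Cd3g, Gzmb and Cd8b1 of the T and natural killer cell list and Tek of the endothelial list were seen in the knockout alone. So were 7.2% of all gene names. Cd3g was at least 2.41-fold, Gzmb 2.15-fold and Tek 2.67-fold higher, while Cd8b1 gave no fold. The part of these cell types in the class I and class II differences was not tested.

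**Figure D5:**
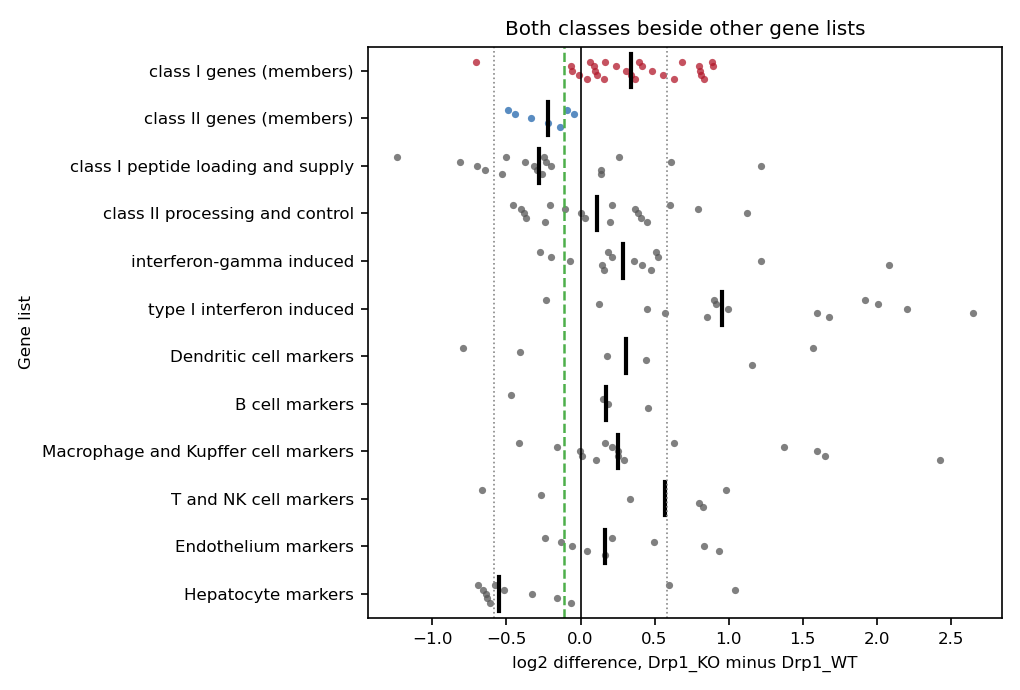
Log2 difference (Drp1_KO minus Drp1_WT) of each measured gene in both MHC classes and in the other gene lists, with 1 point per gene, medians as black bars, the median of all genes as a dashed line and 1.5-fold as dotted lines. The class I median (0.34) lies near that of interferon-gamma induced genes (0.29), and the class II median (-0.22) lies below those of the macrophage (0.25) and dendritic cell (0.31) markers.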

How the data were processed

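Cy3-labelled cRNA made from total liver RNA was read on 1-colour Agilent mouse arrays, per the labels' protocols. The spot intensities were deposited by the authors as Agilent Feature Extraction output (version 9.5.1.1 in the submitters' processing notes). The processed signal is background-subtracted and detrended, per the file headers. The deposited value table holds linear intensities with a median of 45.9 in both columns. The authors' normalization of that table and its order of steps are not given in the sources used here. Its log2 values correlated with the scanner values at over 0.99 on both arrays, so its direction is known.

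Control spots (1377) and outlier spots (190 on the knockout and 183 on the wild type array) were left out, and 0 spots were saturated. Signals were divided by the 75th percentile, log2-transformed without a pseudocount and averaged over spots, then over the probes of a gene measured on both arrays. A probe was measured where at least 50% of its spots were well above background. Analyses used Python 3.11.15, pandas 2.3.3, R 4.3.3 and limma 3.58.1 (loess with span 0.3, quantile, normexp with offset 50). The calculation of gene differences was tested on simulated arrays with known fold changes. Knockout and wild type were not tested against each other, with 1 array each, and the number of arrays limits the precision. Every measured member is named; of the other lists, up to 5 measured genes with the greatest absolute difference, with Irf1, Calr and Ctss; some list genes are not reported here. Ube2l6, Clec4f, list genes below background and marker genes seen in the knockout alone were chosen for naming once their values had been seen. Members and lists were chosen with earlier results of these data known. Probe positions are mm9 and promoter positions GRCm38.p6, neither was converted, and exon annotation was not used here.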

Additional observations from a re-analysis of the deposited data

How the results depend on the processing

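The class I median kept its sign under all 9 planned and 2 added alternatives, and the class II median under all but spike-in scaling. The class I median of 0.34 became 0.61 with quantile normalization, 0.62 with loess, 1.12 with spike-in scaling and 0.61 in the deposited table. The class II median of -0.22 became 0.56 with spike-in scaling, -0.10 with quantile normalization and -0.08 with loess and in the deposited table. The distance between the classes, 0.56, became 0.71 with quantile normalization and 0.70 with loess. The 8 members higher became 15 with quantile normalization, 16 with loess, 29 with spike-in scaling and 14 in the deposited table, and the 1 lower became 0 under each of these and 7 without the filter on dim probes. All 8 genes that were higher stayed so under these 4 scalings. The count fell to 6 with normexp, which lost H2-M11, H2-M3 and H2-T24 and gained H2-D1, and to 7 with the stricter filter, which lost H2-T24. Psmb10 reversed to 0.075 with spike-in scaling. For all genes, 1295 higher and 2065 lower became 657 and 1471 with normexp, 671 and 1451 with the stricter filter, and 3168 and 11338 without a filter, where dim probes below background enter and the median of all genes moves to -0.31. Spike-in scaling moved that median to 0.67 and loess to 0.00. The alternatives with H2-Gs10 in class I and without pseudogenes were chosen after seeing the data. The causes of these shifts were not tested otherwise.

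No paired analysis was possible because each group has 1 array, which also leaves no array to omit. Members near background, such as Ciita, H2-Oa, H2-Ob and H2-T24, rest on dim signals.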
